A study of Rattus norvegicus with 6 samples.

Results

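The interferon response and antigen presentation genes were 39 named rat genes: interferon-stimulated genes (ISGs), the transcription factors that switch them on, and the machinery that makes and carries peptides for major histocompatibility complex (MHC) class I. They were matched by gene symbol, and 38 of the 39 were found among the 18923 genes of the series. Zbp1, a sensor of Z-form nucleic acids, was not matched and is not analysed here. RNA was sequenced from primary chondrocytes, the cells of cartilage, isolated from 24-h-old female Sprague-Dawley rats of wild-type genotype and used at passage 1 or 2. The cells were grown in DMEM with 10% fetal bovine serum (FBS) and 1% penicillin-streptomycin. Before sequencing, the CON group received high-glucose DMEM with 10% FBS for 24 h, and the RA group received 1 µM all-trans retinoic acid in that medium for 24 h. Each group held 3 independent samples. The study's methods call its replicates biologically independent. Whether each came from a separate animal or a pool is not given in the sources used here, so p-values measure the spread between these samples.

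Interferons are secreted proteins that bind receptors linked to the kinases JAK1, JAK2 and TYK2. Type I interferons lead to a complex with STAT2 and IRF9 that binds the interferon-stimulated response element (ISRE), while interferon gamma acts through the gamma-activated sequence (GAS). The genes switched on in this way block viruses, sense viral RNA, and raise the supply of peptides to MHC class I, which is held at the cell surface with β2-microglobulin. Retinoic acid (RA) acts through nuclear receptors that bind direct repeats such as DR5, and RIG-I, the product of Ddx58, takes its name from a retinoic acid-inducible gene.

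Of the 38 genes, 28 had enough counts to be tested and 2 of these differed between the groups. B2m, which encodes β2-microglobulin, rose with RA, and Stat2 fell. Neither reached the fold change required of a differentially expressed gene (DEG), so none of the 28 was a DEG. The classic antiviral effectors Mx1, Ifit3, Oas1a and Rsad2 were at or near 0 in all 6 samples.

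The upstream sequences of 6 of these genes are printed. They show which elements lie in front of the gene that rose, the gene that fell, and 4 others that carry an ISRE or a GAS. Of these 4, Irf1 and Tap1 were tested and did not pass, and Oas1a and Bst2 had too few counts to be tested. Promoter windows were taken from RefSeq (rat build GRCr8) and reached from 250 bases before to 50 bases after the gene start. They were found for 29 of the 39 genes. Motifs were searched on both strands. The ISRE core was GAAA, any 2 bases and GAAA, the GAS core was TTC, any 3 bases and GAA, and the DR5 pair was GNTCA, any 6 bases and GNTCA. Each line gives the 200 bases before the start, 5′ to 3′ on the strand of the gene, with motif matches in capitals.
B2m (chr3:129549130-129549329, plus strand): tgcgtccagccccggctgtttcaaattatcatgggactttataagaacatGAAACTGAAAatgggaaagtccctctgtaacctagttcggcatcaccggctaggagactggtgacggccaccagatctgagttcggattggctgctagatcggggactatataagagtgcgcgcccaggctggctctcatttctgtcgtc
Stat2 (chr7:1286890-1287089, plus strand): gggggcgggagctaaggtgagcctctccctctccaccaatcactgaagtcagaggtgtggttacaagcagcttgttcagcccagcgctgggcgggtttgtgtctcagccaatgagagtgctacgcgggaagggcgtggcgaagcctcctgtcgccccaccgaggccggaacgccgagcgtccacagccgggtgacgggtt
Irf1 (chr10:38417735-38417934, plus strand): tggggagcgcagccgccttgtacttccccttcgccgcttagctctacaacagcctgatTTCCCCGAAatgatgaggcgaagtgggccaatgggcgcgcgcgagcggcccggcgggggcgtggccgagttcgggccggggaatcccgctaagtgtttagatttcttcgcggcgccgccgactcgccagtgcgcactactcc
Oas1a (chr12:41330266-41330465, plus strand): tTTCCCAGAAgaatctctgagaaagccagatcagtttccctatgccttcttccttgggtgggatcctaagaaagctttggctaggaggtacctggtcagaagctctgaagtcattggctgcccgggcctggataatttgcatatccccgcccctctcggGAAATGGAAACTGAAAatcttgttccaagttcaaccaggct
Bst2 (chr16:18254968-18255167, minus strand): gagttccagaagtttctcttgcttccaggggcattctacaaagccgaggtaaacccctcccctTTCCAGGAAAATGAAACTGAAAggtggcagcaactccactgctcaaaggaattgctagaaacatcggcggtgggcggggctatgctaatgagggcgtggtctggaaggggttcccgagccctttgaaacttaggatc
Tap1 (chr20:4668544-4668743, minus strand): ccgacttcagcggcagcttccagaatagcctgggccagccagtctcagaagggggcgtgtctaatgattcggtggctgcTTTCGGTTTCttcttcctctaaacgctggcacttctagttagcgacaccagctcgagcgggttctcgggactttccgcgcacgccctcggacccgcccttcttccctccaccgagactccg

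In B2m the capitals mark 1 ISRE core that begins 150 bases before the start. In Irf1 they mark 1 GAS core that begins 142 bases before the start. Oas1a carried a GAS core 199 bases before the start and 2 overlapping ISRE cores that begin 41 and 35 bases before it. In Bst2 a GAS core at 137 bases overlaps the first of 2 overlapping ISRE cores, at 131 and 125 bases. The match in Tap1, 121 bases before the start, is an ISRE core on the opposite strand. The Stat2 window held none of these letters.

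An ISRE core was found in 18 of the 29 windows, or 62.1% (95% Wilson interval 44.0 to 77.3%), beside 3.92% of the 33469 rat windows of the same length. A GAS core was found in 8 of the 29, or 27.6% (14.7 to 45.7%), beside 8.87% of all windows. The DR5 pair was found in 0 of the 29, an interval that reaches 11.7%, beside 1.14% of all windows. A match is a description of the letters, not a bound site. Among the 21 tested genes with a window, 13 held an ISRE core, and B2m was the one of these 13 that passed the test. Across the whole series, 22 of 243 tested genes with an ISRE core passed the test (16 higher and 6 lower with RA), or 9.05%, and 44 of 601 with a GAS core passed (20 higher and 24 lower), or 7.32%, beside the 9.82% of all tested genes given next.

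The comparison of RA with CON asked which genes changed after 24 h of RA. A gene passed where the p of edgeR's quasi-likelihood test, adjusted by Benjamini-Hochberg over all genes tested, was below 0.05. A DEG also had to be past 0.58 on the log2 scale, up or down. Of 13438 tested genes, 1319 passed, or 9.82%, of which 714 (5.31%) were higher and 605 (4.50%) lower with RA. DEGs numbered 667, or 4.96%. Of the 28 interferon and antigen presentation genes, 2 passed, or 7.14%, with 1 in each direction and 0 DEGs. DESeq2 called B2m and Stat2, 2 of the 35 genes of the set to which it gave an adjusted p, beside 10.8% of all genes. An unadjusted edgeR p below 0.05 was found for 4 of the 28, beside 24.0% of all genes. The median log2 fold change over the 28 was -0.07, with 9 above 0 and 19 below and a range from -0.81 to 0.47. Over all genes tested the median was -0.01, with 6574 above 0 and 6864 below.

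**Figure D1:**
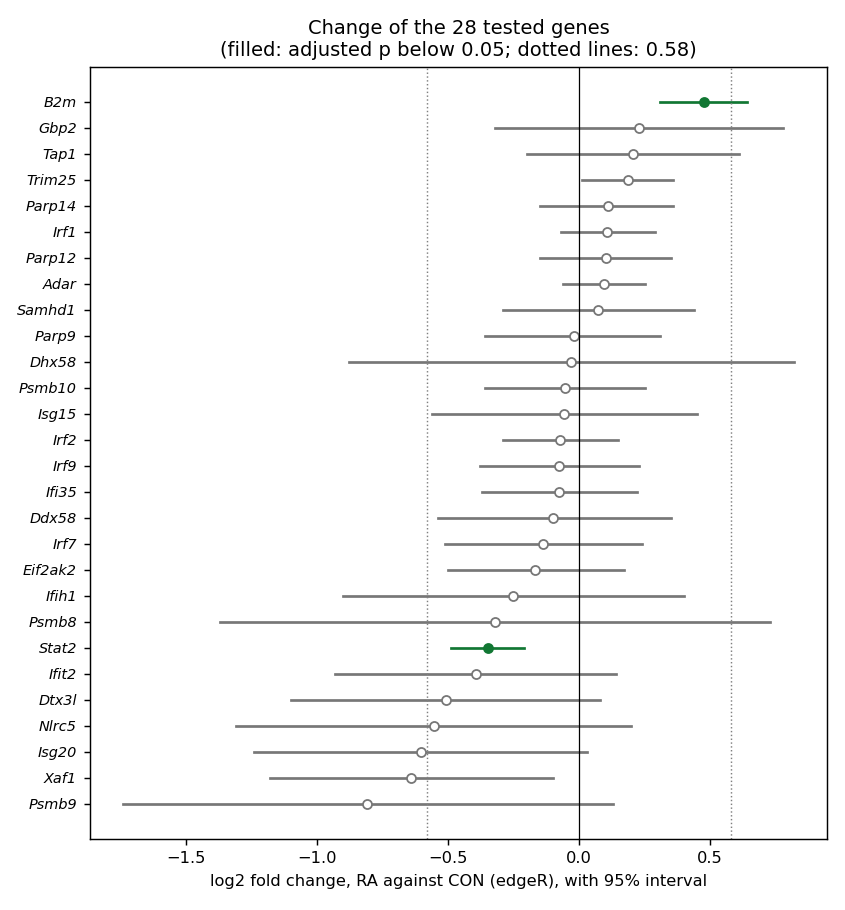
Log2 fold change of each of the 28 tested genes, RA against CON, from edgeR with its 95% interval. Filled green points passed the test (B2m at 0.47 and Stat2 at -0.35), open grey points did not, and the dotted lines mark 0.58 in either direction.

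Total counts ran from 30170909 to 38007486 in CON and from 29370025 to 30952882 in RA. CON sample 1 differed more from the other CON samples (39.9 and 64.2 chi-square units per gene) than these differed from each other (8.20) or the RA samples among themselves (6.47 to 8.18). Without CON sample 1, 2 of 29 tested interferon and antigen presentation genes passed (B2m and Stat2), beside 16.5% of all genes in that fit. Cyp26a1, a retinoic acid hydroxylase and standard retinoid target, rose from 0.389 ± 0.162 to 4.01 ± 0.596 FPKM (mean ± SD, n = 3), and 6 of 8 retinoid response genes were DEGs, all of them higher in RA, with 4 to 6 of the 8 passing over the alternatives. The call of Rarb, a retinoic acid receptor gene, was lost in 5 of the 6 fits that left out a sample (edgeR adjusted p from 0.0866 to 0.197). It was also lost narrowly with upper-quartile scaling (edgeR adjusted p = 0.0507), a replicate block (edgeR, 0.0526) and limma on log2(FPKM + 0.1) (adjusted p = 0.053). All 10 chondrocyte markers were present and passed the test as lower in RA, with a summed level of 8030 to 9930 FPKM in CON and 5030 to 5360 in RA. FPKM is a count per kilobase of gene, scaled to the total count of the sample. In bulk RNA, fewer cells of a type and less RNA per cell cannot be told apart.

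B2m (ENSRNOG00000017123) encodes the light chain shared by MHC class I molecules and was the most abundant of the 38 genes per length. Its level was 158, 147 and 130 FPKM in CON and 204, 199 and 206 FPKM in RA. The 3 RA samples lay close together and above all CON samples. The mean was 145 ± 14.0 FPKM in CON and 203 ± 3.48 FPKM in RA (SD, n = 3). The log2 fold change was 0.47 (SE 0.0719, 95% interval 0.31 to 0.64), with an edgeR adjusted p of 0.00451. The call held with each of the 6 samples left out in turn, and without CON sample 1 the log2 fold change was 0.54 (edgeR adjusted p = 2.98e-05).

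Stat2 (ENSRNOG00000031081) encodes the STAT of the type I interferon complex. It was at 12.1, 12.7 and 11.8 FPKM in CON and at 9.94, 9.74 and 9.33 FPKM in RA. Every RA sample was below every CON sample. The means were 12.2 ± 0.484 and 9.67 ± 0.313 FPKM (SD, n = 3), a log2 fold change of -0.35 (SE 0.0622, 95% interval -0.49 to -0.21, edgeR adjusted p = 0.0095). This call was lost on leaving out CON sample 2 (edgeR adjusted p = 0.0573), RA sample 2 (0.0532) or RA sample 3 (0.0724), while the log2 fold change stayed between -0.36 and -0.32. Without CON sample 1 it was -0.36 (edgeR adjusted p = 0.00112).

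**Figure D2:**
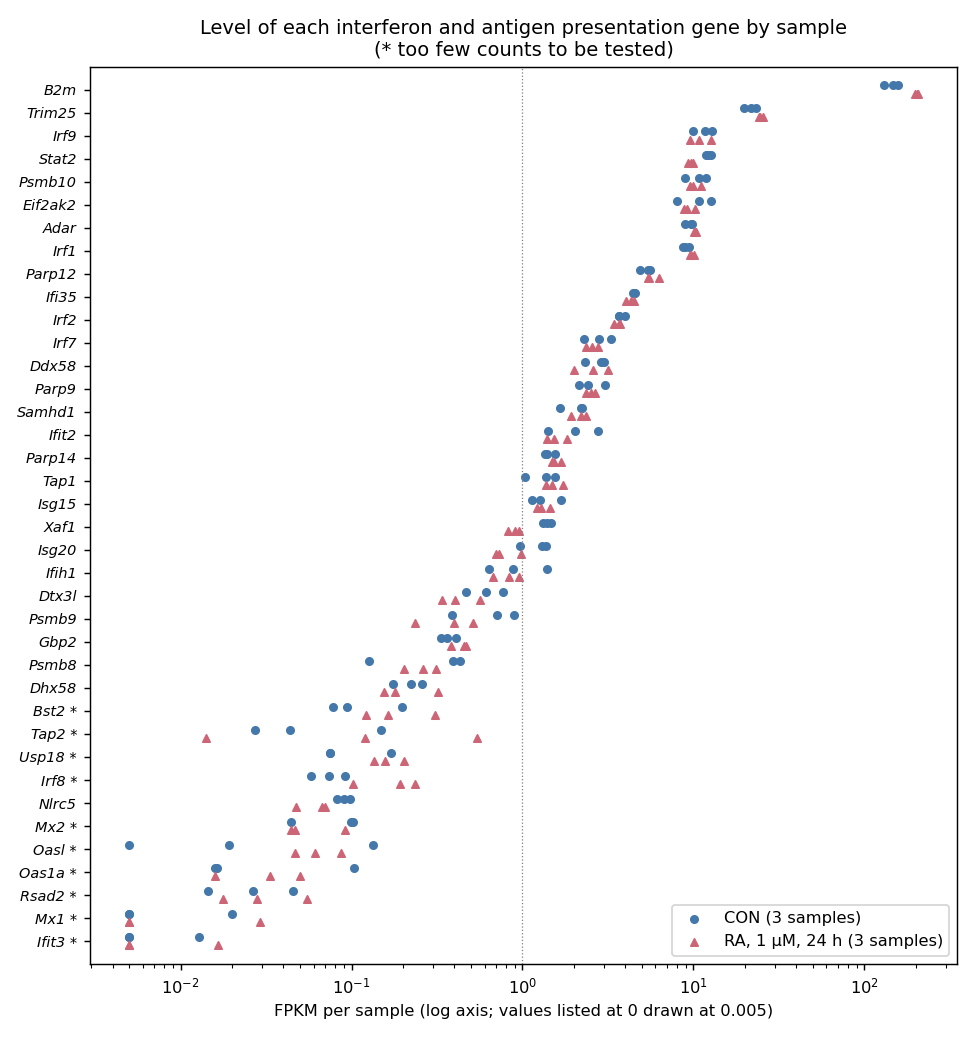
FPKM of each of the 38 genes in each sample on a log axis, CON as circles and RA as triangles, ordered by mean level, with values listed at 0 drawn at 0.005 and an asterisk at genes with too few counts to be tested. B2m stands at 130 to 206 FPKM, the other genes stand at or below 25.5 FPKM, and the groups overlap for most genes.

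The other transcription factors of the pathway did not pass. Irf9, the DNA-binding partner of STAT2, was at 9.96, 11.7 and 12.9 FPKM in CON and at 10.8, 12.6 and 9.58 FPKM in RA. Its groups overlapped, and its log2 fold change of -0.08 had a 95% interval from -0.38 to 0.23 (edgeR adjusted p = 0.771). That value turned to 0.02 without CON sample 3 and to 0.01 without RA sample 3. Irf1, a factor that interferon gamma induces and that acts on antigen presentation genes, was at 8.92, 8.65 and 9.38 FPKM in CON and at 9.54, 9.73 and 10.1 FPKM in RA. Its groups did not overlap, but the difference was small, with a log2 fold change of 0.11 (SE 0.0797, 95% interval -0.07 to 0.29) and an edgeR adjusted p of 0.452. Irf2, which competes with IRF1 for its sites, stood at 3.43 to 4.00 FPKM over all samples, with a log2 fold change of -0.07. Irf7, the amplifier of type I interferon production, stood at 2.29 to 3.28 FPKM, with a log2 fold change of -0.14. Nlrc5, the transactivator of MHC class I genes, was at 0.0825 to 0.0982 FPKM in CON and 0.0475 to 0.0704 FPKM in RA. The groups did not overlap, yet at this depth the log2 fold change of -0.55 had an interval from -1.31 to 0.20 (edgeR adjusted p = 0.351). Irf8, a factor of myeloid cells, had 8, 5 and 8 counts in CON and 20, 16 and 9 in RA, too few to pass the filter on low counts. In a fit without that filter its log2 fold change was 1.21 (SE 0.496, edgeR adjusted p = 0.208). Among the 6 tested factors the median log2 fold change was -0.11 and 1 passed, beside 9.82% of all genes.

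**Figure D3:**
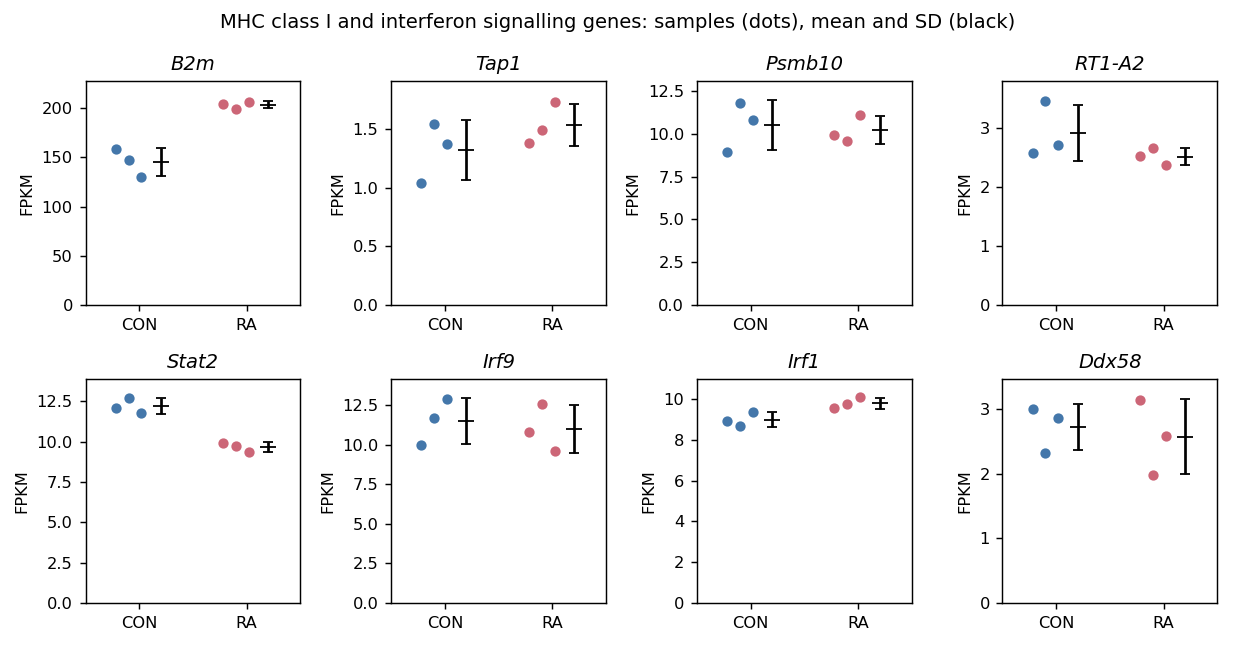
FPKM in each sample for 4 MHC class I genes (B2m, Tap1, Psmb10, RT1-A2) and 4 signalling genes (Stat2, Irf9, Irf1, Ddx58), with axes from 0, dots for samples and black marks for the mean and SD of 3 samples. The CON and RA dots are apart for B2m, Stat2 and Irf1 and overlap for the other 5 genes.

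The peptide supply for MHC class I gave no second call. The immunoproteasome subunits Psmb8, Psmb9 and Psmb10 replace their constitutive counterparts under interferon. Psmb10 was at 8.93, 11.8 and 10.8 FPKM in CON and at 9.91, 9.57 and 11.1 FPKM in RA, while Psmb8 stayed at or below 0.433 FPKM and Psmb9 at or below 0.894 FPKM in every sample. Psmb9 was at 0.386, 0.894 and 0.710 FPKM in CON and at 0.399, 0.515 and 0.234 FPKM in RA. Its groups overlapped, and its log2 fold change of -0.81, the lowest of the 28, had an interval from -1.74 to 0.13 (edgeR adjusted p = 0.273). Tap1, a chain of the transporter that moves peptides into the endoplasmic reticulum, was at 1.04, 1.54 and 1.37 FPKM in CON and at 1.38, 1.49 and 1.73 FPKM in RA, a log2 fold change of 0.20 (95% interval -0.20 to 0.61, edgeR adjusted p = 0.524). Its partner chain Tap2 had 11, 2 and 4 counts in CON and 39, 1 and 9 in RA, so RA sample 1 held most of the RA counts, and it was not tested. Of the 5 tested genes of this role 1 passed, beside 9.82% of all genes. The median log2 fold change was -0.05, and it ran from -0.159 without CON sample 1 to 0.175 without CON sample 2.

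The RNA sensors did not pass either. Ddx58 was at 3.00, 2.33 and 2.87 FPKM in CON and at 3.15, 1.99 and 2.59 FPKM in RA. The highest and the lowest value were both in RA, and the log2 fold change was -0.10 (SE 0.195, 95% interval -0.54 to 0.35, edgeR adjusted p = 0.799), turning to 0.05 without RA sample 2. Ifih1, which encodes the long-RNA sensor MDA5, was at 1.40, 0.876 and 0.635 FPKM in CON and at 0.951, 0.830 and 0.672 FPKM in RA. CON sample 1 held its highest value, and the log2 fold change of -0.25 turned to 0.10 without that sample. Dhx58, the sensor regulator LGP2, stood at 0.155 to 0.319 FPKM, with an interval from -0.88 to 0.82. Trim25, the ubiquitin ligase that modifies RIG-I, was the second most abundant of the genes, at 19.8, 21.7 and 23.2 FPKM in CON and 24.3, 25.5 and 24.5 FPKM in RA. Its groups did not overlap, but its log2 fold change of 0.19 (SE 0.0775, 95% interval 0.01 to 0.36) gave an edgeR adjusted p of 0.189. Usp18, which removes ISG15 from proteins, had between 4 and 11 counts per sample and was not tested.

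Of 17 antiviral effectors named, 16 were found, 9 were tested and 0 passed by edgeR or DESeq2, beside 9.82% and 10.8% of all genes. The median log2 fold change was -0.08, and 1 gene had an unadjusted edgeR p below 0.05, beside 24.0% of all genes. That gene was Xaf1, a pro-apoptotic ISG, at 1.39, 1.46 and 1.32 FPKM in CON and at 0.823, 0.956 and 0.907 FPKM in RA. All RA samples were lower than all CON samples. The log2 fold change was -0.64 (SE 0.237, 95% interval -1.18 to -0.10) with an edgeR adjusted p of 0.145, whereas limma on log2(FPKM + 0.1) called it (-0.58, adjusted p = 0.0359). Isg15, the ubiquitin-like modifier that is among the first genes induced by interferon, was at 1.69, 1.26 and 1.14 FPKM in CON and at 1.28, 1.22 and 1.45 FPKM in RA. The groups overlapped, with a log2 fold change of -0.06 (95% interval -0.56 to 0.45) that turned to 0.12 without CON sample 1. Eif2ak2, the kinase PKR that halts translation on double-stranded RNA, was at 12.7, 10.8 and 8.04 FPKM in CON and at 10.2, 8.86 and 9.22 FPKM in RA, a log2 fold change of -0.17 (95% interval -0.50 to 0.17, edgeR adjusted p = 0.523) that was -0.01 without CON sample 1 and -0.33 without CON sample 3. Adar, the adenosine deaminase that edits double-stranded RNA, was at 8.93 to 9.79 FPKM in CON and 10.1 to 10.3 FPKM in RA, without overlap and with a log2 fold change of 0.09 (edgeR adjusted p = 0.435). Ifit2, which binds viral RNA, was at 2.77, 2.03 and 1.41 FPKM in CON and at 1.83, 1.53 and 1.39 FPKM in RA, a log2 fold change of -0.40 (95% interval -0.93 to 0.14, edgeR adjusted p = 0.348) that was -0.13 without CON sample 1 and -0.60 without CON sample 3. The exonuclease gene Isg20 had a log2 fold change of -0.60, the dNTPase gene Samhd1 0.07, the GTPase gene Gbp2 0.23 and Ifi35 -0.08, with edgeR adjusted p-values between 0.232 and 0.819.

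The effectors left untested were barely counted. Ifit3 had 1 count in CON sample 3, 1 in RA sample 1 and 0 in the other samples, and Mx1 had 2 counts in CON sample 2, 3 in RA sample 3 and 0 elsewhere. A count of 0 allows up to 3 counts, for counting error only. Counts per sample stood at 4 to 11 for Mx2, 1 to 8 for Oas1a, 0 to 11 for Oasl, 2 to 6 for Rsad2 (viperin) and 2 to 8 for Bst2 (tetherin). Each of these genes was counted in both groups. Without the filter on low counts, the 10 untested genes had edgeR adjusted p-values from 0.208 (Irf8) to 0.984 (Ifit3).

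The PARP and DTX3L genes, whose products add ADP-ribose or ubiquitin to proteins, held 4 tested genes. By edgeR or DESeq2 0 passed, beside 9.82% and 10.8% of all genes, and 0 had an unadjusted edgeR p below 0.05, beside 24.0%. The median log2 fold change was 0.04, and it ran from -0.006 without CON sample 2 to 0.102 without CON sample 1. Parp12 stood at 4.88 to 6.28 FPKM (log2 fold change 0.10), Parp14 at 1.36 to 1.69 FPKM (0.11) and Parp9 at 2.15 to 3.03 FPKM (-0.02). Dtx3l, the ubiquitin ligase partner of PARP9, was at 0.609, 0.768 and 0.465 FPKM in CON and at 0.562, 0.339 and 0.401 FPKM in RA, with overlapping groups and a log2 fold change of -0.51 (95% interval -1.10 to 0.08, edgeR adjusted p = 0.273).

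Across the 28 tested genes, 7 had CON and RA values that did not overlap, 4 of them higher in RA (B2m, Trim25, Irf1, Adar) and 3 lower (Stat2, Xaf1, Nlrc5), beside 32.2% of all genes tested. For 16 of the 28 the 95% interval of the log2 fold change lay within 0.58 of 0, beside 64.3% of all genes. Of the 38 genes, 21 had a mean of at least 1 FPKM, or 55.3%, beside 60.1% of all genes. The highest CON value lay in sample 1 for 10 of the 28 genes, in sample 2 for 10 and in sample 3 for 8, beside 41.9%, 22.2% and 35.9% of all genes. The highest RA value lay in sample 1 for 9, in sample 2 for 11 and in sample 3 for 8, beside 36.2%, 32.1% and 31.7% of all genes.

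The genes around the 39 were counted in lists of the pathway. Of 13 interferon ligands, 1 was found, Ifne, with 0 to 11 counts per sample, and it was not tested. Of 10 receptor and JAK-STAT genes tested, 0 passed by edgeR or DESeq2, beside 9.82% and 10.8% of all genes. Of the 10, 4 had an unadjusted edgeR p below 0.05 (Ifngr1, Ifngr2, Jak2 and Tyk2), beside 24.0% of all genes. The interferon gamma receptor chains lay on opposite sides, Ifngr1 at 0.23 (edgeR adjusted p = 0.0632) and Ifngr2 at -0.23 (0.0571), and neither passed, although both passed without CON sample 1 (0.26, edgeR adjusted p = 0.00689, and -0.25, 0.0118). The type I receptor chains Ifnar1 and Ifnar2 had log2 fold changes of -0.03 and 0.11, and the kinases Jak1, Jak2 and Tyk2 had 0.04, -0.21 and 0.25, with edgeR adjusted p-values from 0.106 to 0.798.

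Of 8 feedback inhibitors 0 passed by edgeR or DESeq2, beside 9.82% and 10.8% of all genes. An unadjusted edgeR p below 0.05 was found for 0 of the 8, beside 24.0% of all genes. The lowest p was that of the phosphatase gene Ptpn2 (-0.24, edgeR adjusted p = 0.324). Without CON sample 1, where 16.5% of all genes passed, Nlrx1, a mitochondrial inhibitor of the sensing pathway, passed (-0.26, edgeR adjusted p = 0.0236). Of 11 tested genes of nucleic acid sensing upstream of interferon, 0 passed by edgeR or DESeq2, beside 9.82% and 10.8% of all genes. An unadjusted edgeR p below 0.05 was found for 1 of the 11, beside 24.0% of all genes. That gene was Sting1, the adaptor of cytosolic DNA sensing, at 2.06, 2.18 and 2.49 FPKM in CON and at 3.10, 3.15 and 2.83 FPKM in RA (0.42, edgeR adjusted p = 0.106). Irf3, the factor that starts interferon transcription, had a log2 fold change of -0.03 and stood at 21.2 to 22.1 FPKM.

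Of 64 other ISGs, 57 were found and 44 tested, and 5 passed, or 11.4%, beside 9.82% of all genes. All 5 were higher in RA, the direction of 5.31% of all genes, and 2 were DEGs, beside 4.96% of all genes. Cxcl10, a chemokine for T cells, was at 0.718, 0.877 and 1.14 FPKM in CON and at 2.70, 2.25 and 1.65 FPKM in RA, with no overlap and a log2 fold change of 1.25 (SE 0.271, edgeR adjusted p = 0.0229). That call was lost without CON sample 2 (edgeR adjusted p = 0.0899), RA sample 1 (0.1) or RA sample 2 (0.0912). Plscr1, a phospholipid scramblase with antiviral activity, rose from 8.90 ± 0.578 to 13.5 ± 0.182 FPKM (SD, n = 3), a log2 fold change of 0.59 (edgeR adjusted p = 0.00151). Without CON sample 1 it passed at 0.55 and was no longer a DEG. The other genes that passed, chosen for naming after their values were seen, were Slfn2 (0.58), the nuclear body gene Pml (0.57) and the membrane restriction factor gene Ifitm2 (0.38). The Ifitm2 call was lost without RA sample 2 (edgeR adjusted p = 0.0834) or RA sample 3 (0.0813). Without CON sample 1 the count was 8, 1 of them lower (Ifi27l2b, -0.43, edgeR adjusted p = 0.00503), where 16.5% of all genes passed, and without RA sample 2 it was 3, where 4.99% of all genes passed.

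**Figure D4:**
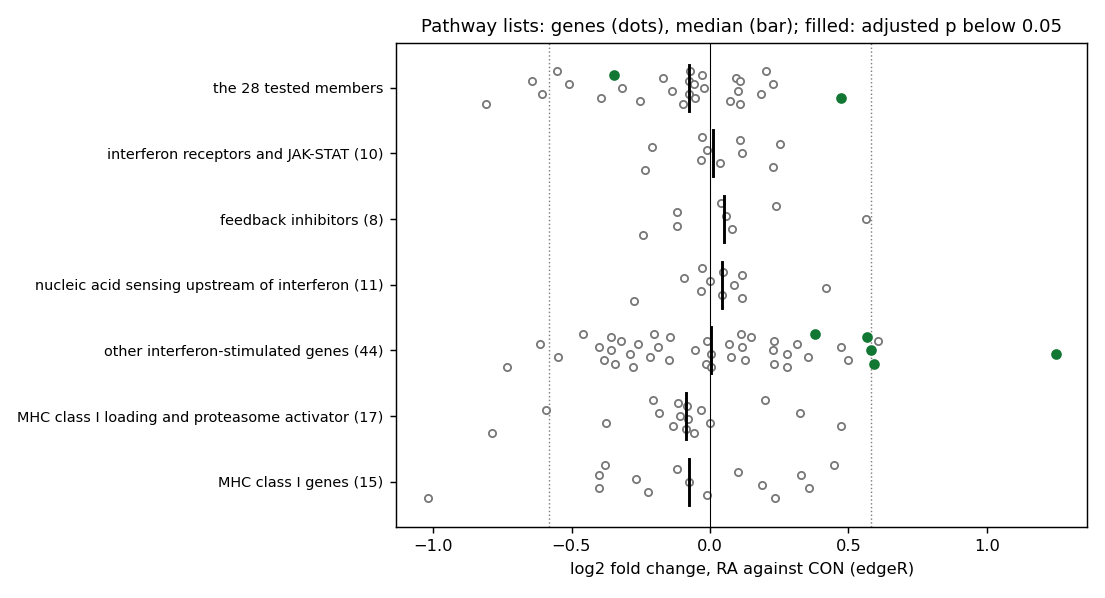
Log2 fold change of each tested gene (dots, filled where the gene passed the test) in the interferon and antigen presentation set and in 6 pathway lists, with the number tested in parentheses and a bar at the median of each list. The medians lie near 0, and the filled dots beyond 0.58 belong to the list of other interferon-stimulated genes.

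None of 17 tested genes of MHC class I loading passed by edgeR or DESeq2, beside 9.82% and 10.8% of all genes. An unadjusted edgeR p below 0.05 was found for 1, beside 24.0% of all genes, the chaperone gene Hspa5 (-0.21, edgeR adjusted p = 0.141). Without CON sample 1, where 16.5% of all genes passed, Lnpep, an aminopeptidase gene, passed (-1.13, edgeR adjusted p = 0.000487). Psme2, a subunit gene of the proteasome activator, had a log2 fold change of -0.06 at 31.0 to 36.3 FPKM, whereas its partner Psme1 had 0 to 2 counts per sample and was not tested. Of the MHC class I genes themselves, named RT1 in the rat, 20 were found and 15 tested. By edgeR or DESeq2 0 passed, beside 9.82% and 10.8% of all genes. At an unadjusted edgeR p below 0.05 there was 1, RT1-N3 (0.33, edgeR adjusted p = 0.131), beside 24.0% of all genes. Some of these genes are near-identical copies, and how shared reads were assigned is not given in the sources used here, so values in this list are uncertain. Of 10 MHC class II genes found, 2 were tested. Of these, 0 passed by edgeR or DESeq2 or at an unadjusted edgeR p below 0.05, beside the same shares of all genes. Ciita, the class II transactivator, had 0 to 4 counts per sample.

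Immune cells carry many of these genes, so their markers were read beside the results. Of 16 leukocyte markers 14 were found, 6 were tested and 0 passed by edgeR or DESeq2, beside 9.82% and 10.8% of all genes. Of the 6, 3 lay above 0 and 3 below. An unadjusted edgeR p below 0.05 was found for 2, in opposite directions (Cd14 at 0.23, Laptm5 at -0.61), beside 24.0% of all genes. The summed level of the 14 was 15.3 to 17.3 FPKM in CON and 18.0 to 19.5 FPKM in RA, most of it Cd14. The pan-leukocyte gene Ptprc had 0 to 5 counts and the macrophage gene Adgre1 0 to 1 count per sample. Of 6 dendritic cell markers 4 were found and 2 tested, with a summed level of 1.94 to 2.43 FPKM in CON and 4.30 to 5.09 FPKM in RA. Itgax (CD11c) passed the test (mean of 0.680 FPKM in CON and 2.83 FPKM in RA, log2 fold change 2.05, edgeR adjusted p = 0.000237) and carried most of this difference. Zbtb46 did not pass (means of 1.53 and 1.74 FPKM, edgeR adjusted p = 0.503), while Flt3 had 0 to 4 counts and Clec9a 0 to 2 counts per sample. Endothelial markers summed to 0.064 to 0.214 FPKM in CON and 0.0847 to 0.179 FPKM in RA, and 0 of 1 tested passed. The summed level of 6 fibroblast and perichondrium markers was 3730 to 4920 FPKM in CON and 4810 to 5060 in RA (1 passed as higher, 2 as lower, of which Dcn in 2 of 6 fits that left out a sample). That of 6 skeletal muscle markers was 4.72 to 6.00 FPKM in CON and 6.96 to 7.87 FPKM in RA. Most of it was Des, which did not pass (means of 5.09 and 6.72 FPKM, edgeR adjusted p = 0.0766). The other tested muscle marker, Myod1, passed as higher (means of 0.0932 and 0.366 FPKM), and in 3 of 6 such fits. The part of these cells in the levels of B2m and Stat2 was not tested.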

How the data were processed

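Poly(A) RNA of 3 CON and 3 RA samples was sequenced on an Illumina HiSeq instrument. The authors deposited raw whole-number counts per gene and FPKM values scaled by gene length and total count. The submitters' processing notes name HISAT2, HTSeq 0.13.5 and Rnor_6.0, and the strand setting and annotation release are not given in the sources used here, so near-identical, overlapping and antisense genes are uncertain. Counts were tested with edgeR 4.0.16 in R 4.3.3 (TMM, filterByExpr with a minimum count of 10, quasi-likelihood test, Benjamini-Hochberg adjustment over 13438 genes, no covariates). The members, lists and tests were chosen with earlier results of these data known. The 38 matched genes are all described, and of each pathway list the DEGs, preset signalling genes, or else the gene with the lowest p were named. Some further genes were named after their values were seen, among them Nlrx1, Lnpep and Ifi27l2b, which passed without CON sample 1. Results for some genes of the pathway lists are not reported here and are left out of the counts of those lists. On simulated data edgeR called 39% of 100 genes changed by 0.58 and 79.6% of 98 changed by 1 (log2), all with the right sign. Alternatives were DESeq2 1.42.0, limma 3.58.1 on log2(FPKM + 0.1) and log2(FPKM + 1), other scalings and filters, a replicate block, and each sample left out in turn.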

Additional observations from a re-analysis of the deposited data

How the results depend on the processing

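The count of 2 passing genes of the set (B2m and Stat2) held under the 3 other scalings of edgeR, DESeq2, both other filters on low counts and the replicate block, and was 3 in both limma fits. At an unadjusted p below 0.05 it was 4 (2 higher, 2 lower), with 1 beyond 0.58. Xaf1 made the lower count 2 in both limma fits and the count of DEGs 1 on log2(FPKM + 0.1). Leaving out a sample gave 1 to 2 passing genes, 0 to 1 of them lower. Across all genes, leaving out a sample gave 657 to 2242 passing genes, 375 to 1179 higher and 282 to 1063 lower, and an unadjusted p below 0.05 gave 3225, 1650 and 1575. DEGs numbered 434 with limma on log2(FPKM + 1) and 1017 with unadjusted p. The median of the 28 ran from -0.096 to -0.027 over left-out samples. That of the antiviral effectors ran from -0.165 to -0.01 and was 0.009 without a filter, that of the transcription factors ran from -0.173 to -0.065 and was -0.052 with limma on log2(FPKM + 1), and that of peptide processing ran from -0.159 to 0.175 and was 0.2 with at least 50 counts in 3 samples, which left out its low genes. Over left-out samples the median of the RNA sensors ran from -0.185 to 0.107 and that of the PARP and DTX3L genes from -0.006 to 0.102. Receptor and JAK-STAT genes passing numbered 1 with that filter (Ifngr2) and 0 to 2 over left-out samples. Over left-out samples the other ISGs gave 3 to 8, and feedback inhibitors and MHC class I loading genes 0 to 1 each. Over the alternatives, 395 of 413 single-gene values kept direction and call, and 8 genes changed sign at least once. Over left-out samples the value crossed 0 for Isg15 (-0.165 to 0.119), Ifih1 (-0.48 to 0.104), Irf9 (-0.19 to 0.024), Ddx58 (-0.259 to 0.054), Dhx58 (-0.414 to 0.161), Psmb10 (-0.159 to 0.029), Samhd1 (-0.055 to 0.153) and Parp9 (-0.121 to 0.123, and 0.002 with limma on log2(FPKM + 0.1)), and, among the pathway list genes named in the report, it reached or crossed 0 for Ifnar1 (-0.064 to 0.011), Jak1 (-0.005 to 0.099) and Psme2 (-0.104 to 0.0). The cause was not tested. Deviations of samples with the same number correlated at 0.093, -0.012 and 0.012, beside -0.122 to 0.11 between samples with different numbers. With 3 samples per group these values cannot show whether the numbers pair the samples. With the replicate block 1595 genes and 2 genes of the set passed.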
